A study of Macaca mulatta with 25 samples.

Results

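Fatty acid oxidation was followed through 34 genes in blastocysts of rhesus macaques, hollow embryos that are about to implant. The genes were listed by symbol, from carnitine transport and fatty acid activation to the mitochondrial and peroxisomal enzymes, and were matched to 34 of the 35395 genes of the count table. All 34 passed the filter on low counts, which kept 13934 genes. Of these, 19 act in mitochondrial oxidation, 8 are counted here as peroxisomal, and 7 were put in neither class because they act before that branch point, at several sites, or as regulators. The embryos came from females treated since about 2.5 years of age, 10 females per group, for 5 to 6 years. Control females (C) ate chow with 15% fat, 59% carbohydrate and 26% protein and carried cholesterol implants. Females of the testosterone group (T) ate the same chow and carried testosterone implants set to hold blood testosterone at 3 to 5 times its normal level. The Western-style diet group (WSD) ate food with 36% fat, 46% carbohydrate and 18% protein, and the fourth group (TWSD) had both the implants and that diet. Ovarian stimulation could be done in 10 C, 7 T, 6 WSD and 3 TWSD females, because of health problems in the treated groups. Oocytes of all groups were fertilized in vitro with semen of fertile males and cultured for up to 8 days in the same way, and the outer coat was removed before freezing. RNA sequencing gave 5 C, 10 T, 8 WSD and 2 TWSD libraries, which are named here by group and number.

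Beta-oxidation shortens fatty acids from the carboxyl end and hands the electrons and acetyl-CoA to energy metabolism. Long chains are first joined to coenzyme A by acyl-CoA synthetases and are carried into mitochondria as carnitine esters, while the electron transfer flavoprotein passes electrons from the acyl-CoA dehydrogenases to the respiratory chain. Peroxisomes shorten very long and branched chains by a parallel set of enzymes whose first step, an oxidase, transfers electrons to oxygen, and the shortened products leave for mitochondria. Mammalian oocytes and early embryos hold fatty acid stores, and beta-oxidation is one of their fuel sources.

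Library totals ran from 14219054 to 35544542 counts. Levels are given as CPM, the counts of a gene relative to the library total, scaled with TMM factors, which correct for differences in library composition; gene lengths were not used, so levels of one gene are compared between libraries but never with those of another gene. The labels do not say which mother or father a library came from or whether 1 library is 1 embryo, so a p-value reflects only how far these libraries lie apart, which may in part be technical. In whole embryos, fewer cells of a type and less RNA per cell cannot be told apart. Markers of trophectoderm and epiblast were present in most libraries, but 4 libraries stood apart. CGA, the alpha chain of the placental hormone chorionic gonadotropin, stood at 1004 to 3025 CPM in libraries C 8, C 11, C 12 and T 1, and did not exceed 4.24 in any other library. The summed level of 7 syncytiotrophoblast markers was 3161 to 9847 CPM in those 4 libraries, and ran from 55.3 to 191 in the other 21. POU5F1, a defining marker of the epiblast, was at 0.627 CPM in C 12 and 8.51 in C 11, and at 206 or more in the other 23.

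ACOX3, a peroxisomal oxidase of branched-chain acyl-CoA, was the 1 gene of the 34 that passed the test in any of 6 comparisons (edgeR's quasi-likelihood test, Benjamini-Hochberg adjusted p under 0.05 over all genes tested). It was higher in WSD than in C embryos. With testosterone alone 0 of the 34 genes passed, and 0 passed with both treatments. In T against C, 5 genes had an unadjusted p under 0.05, as did 2544 of the 13934 genes tested. DESeq2 and limma's voom each called 0, and edgeR called 0.337% of all genes tested higher and 3.77% lower. In WSD against C, 1 gene was called, beside 0.466% of all genes called higher and 3.6% lower. An unadjusted p under 0.05 was reached by 3 of the 34 genes and by 2551 of all genes tested. In TWSD against C, 6 genes had an unadjusted p under 0.05, as did 3062 of all genes tested. EdgeR called 0.861% of all genes higher and 0.337% lower. DESeq2 called 4 members (ACADVL, ETFA, ACOX3 and ACACB) and voom 0. DESeq2 also called many more of all genes than edgeR, as given in the last section. Against shares this low, 0 or 1 call among 34 genes shows nothing particular to the list.

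The 3 treated groups share the same 5 control libraries, so their values stand side by side and are not independent. Of the 34 genes, 22 had a log2 change above 0 in T, 20 in WSD and 21 in TWSD, where 43.8%, 43.4% and 39.5% of all genes did. The median log2 change of the members was 0.13 in T, 0.10 in WSD and 0.36 in TWSD, beside -0.12, -0.12 and -0.38 over all genes tested. Without C 12 the members' median was -0.08 in T and -0.10 in WSD, with 13 and 14 genes above 0, so the sign of both medians rested on that library. Without TWSD 2 the median in TWSD was 0.01. Scaling by library totals in place of TMM moved the median of all genes to 0.02 in T and -0.01 in WSD, and those of the members to 0.21 and 0.19.

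T and WSD embryos were compared directly as well. Of the 34 genes 0 passed with edgeR, 0 had an unadjusted p under 0.05 (237 of all genes tested did), and DESeq2 and voom called 0, with 0% of all genes called higher and 0% lower. The members' log2 differences ran from -0.56 to 0.71 with a median of -0.04. TWSD against the mean of T and WSD gave 0 calls with edgeR, beside 0.0646% of all genes called higher and 0.0359% lower. An unadjusted p under 0.05 was reached by 6 members and by 2007 of all genes tested. DESeq2 called 1 member (ACACB) and voom 0. The interaction (the diet's log2 effect in implanted females less that in the others) gave 0 calls with edgeR, beside 0.0431% higher and 0.0287% lower. An unadjusted p under 0.05 was reached by 2 members (ACACB and CROT) and by 1889 of all genes tested. DESeq2 called 1 member (ACACB) and voom 0. In this and the preceding comparison DESeq2 also called many more of all genes than edgeR, as given in the last section. Its calls of ACACB are thus not to be set beside edgeR's shares.

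**Figure D1:**
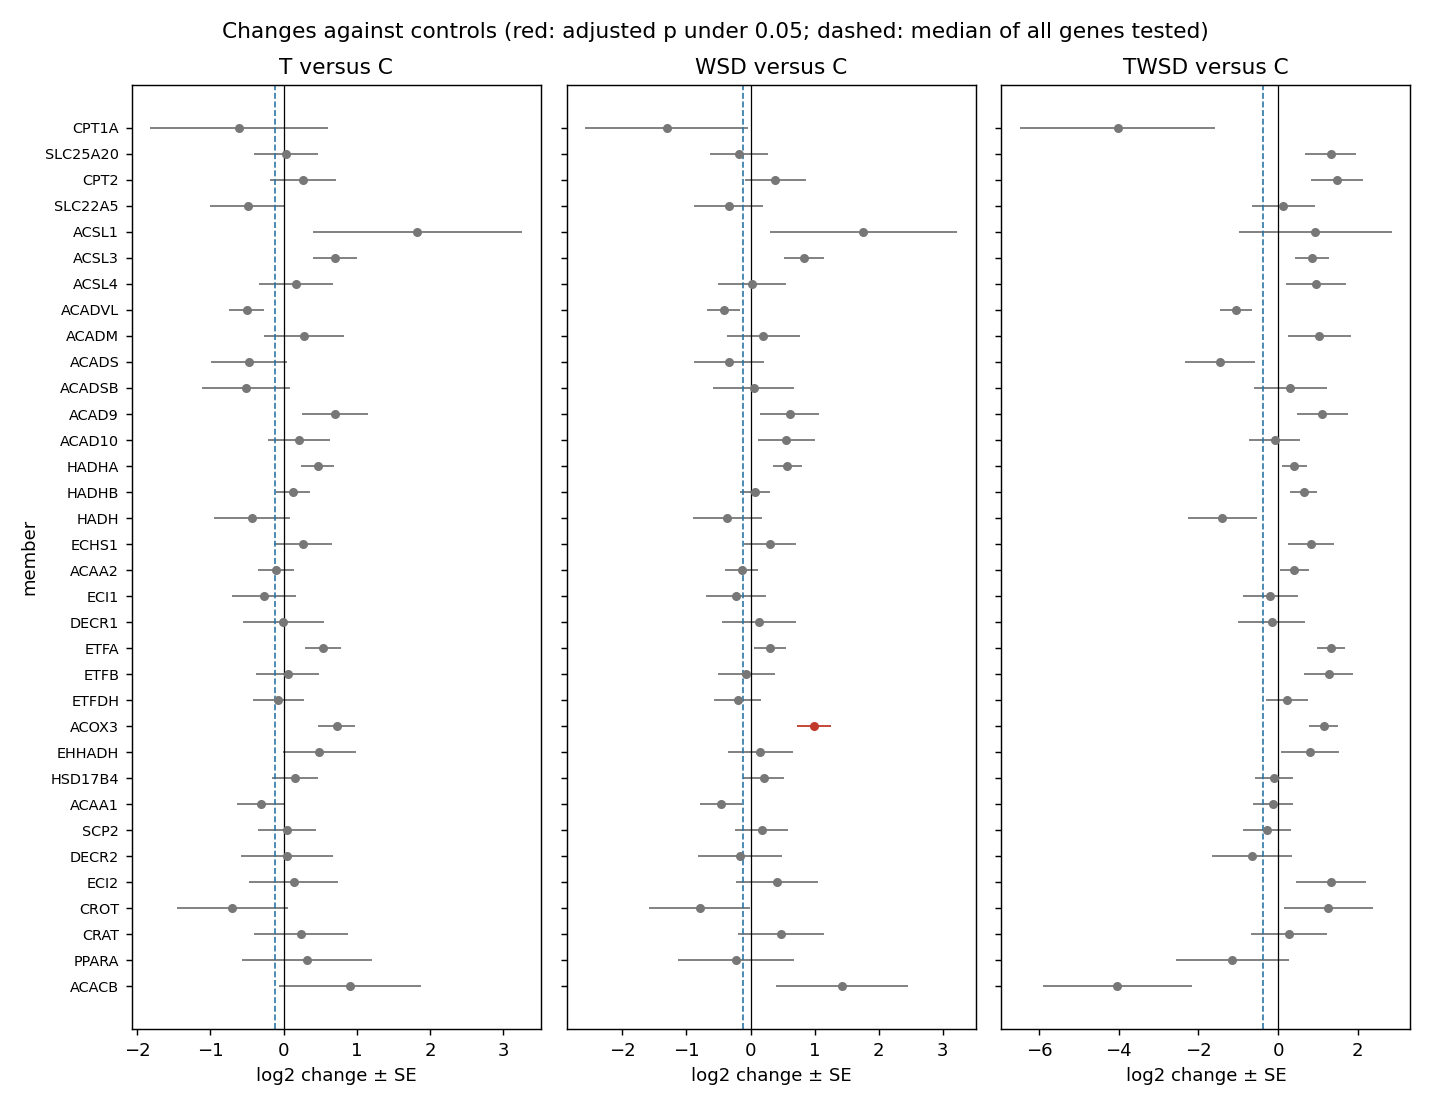
Log2 change with its standard error for each of the 34 genes, in T, WSD and TWSD against the 5 controls. ACOX3 in WSD, in red, is the gene with an adjusted p under 0.05, and the dashed line is the median of all genes tested (-0.12, -0.12 and -0.38).

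In the carnitine shuttle, CPT1A was close to its detection limit in many libraries. It encodes the liver form of the outer-membrane carnitine palmitoyltransferase, the step at which entry of long chains is regulated. CPT1A reached 1 CPM in 14 of 25 libraries, had no count in 3, and peaked at 10.6 CPM in C 12. CPT1B, the muscle form, was also low, with group means of at most 2.01 CPM. The SLC25A20 product exchanges acylcarnitine for carnitine across the inner membrane, and CPT2 turns acylcarnitine back into acyl-CoA inside.

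SLC25A20 was at 137, 55.2, 28.2, 98.2 and 6.63 CPM in C 1, C 2, C 8, C 11 and C 12. It ran from 38.4 to 111 CPM (median 61.9) in T and from 29.0 to 76.5 (median 61.3) in WSD, and was at 265 in TWSD 2 and 59.4 in TWSD 3. TWSD 2 was thus the highest of the 25 libraries, and TWSD 3 lay inside the range of T and WSD. The log2 change of TWSD against C was 1.32 ± 0.64 (SE, adjusted p = 0.226). Without C 12 and TWSD 2 it was -0.39.

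CPT2 was at 70.0, 89.7, 49.3, 8.25 and 9.09 CPM in the controls in the same order. It ran from 32.8 to 126 CPM (median 43.3) in T and from 44.1 to 83.4 (median 55.6) in WSD, and was at 214 in TWSD 2 and 39.5 in TWSD 3. Here too TWSD 2 was highest, with C 11 and C 12 lowest. The change of TWSD against C, 1.48 ± 0.65 (adjusted p = 0.185), was -0.43 without C 12 and TWSD 2. SLC22A5, the plasma membrane carnitine transporter, ran from 1.15 to 24.98 CPM over all libraries, and its groups overlapped.

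Among the acyl-CoA synthetases, which activate fatty acids, ACSL3 had the lowest adjusted p. ACSL3 is an endoplasmic reticulum and lipid droplet enzyme. It was at 301, 681, 201, 389 and 123 CPM in the controls, from 179 to 716 (median 571) in T, from 498 to 777 (median 601) in WSD, and at 623 and 601 in TWSD 2 and TWSD 3. C 8, C 12 and T 1 were the 3 lowest libraries and C 2 lay among the treated ones, so each treated group overlapped the controls. Its log2 change was 0.70 ± 0.30 in T (adjusted p = 0.2), 0.83 ± 0.31 in WSD (0.133) and 0.85 ± 0.43 in TWSD (0.244). Without C 2 it passed in T and in WSD, and without C 8, C 11 and C 12 it was 0.20, 0.33 and 0.34. ACSL4, which prefers arachidonic acid, ran from 4.70 to 147 CPM, and ACSL1 was near the detection limit, at 1 CPM or more in 12 libraries.

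The acyl-CoA dehydrogenases carry out the first step of each mitochondrial cycle and differ in chain length. ACADVL takes very long chains. It was at 87.6, 87.7, 141, 136 and 53.6 CPM in the controls, from 39.5 to 110 (median 71.0) in T, from 58.3 to 105 (median 74.0) in WSD, and at 44.2 and 53.2 in TWSD 2 and TWSD 3. Both TWSD libraries lay below all controls, by a narrow margin against C 12. Its log2 change was -0.51 ± 0.24 in T (adjusted p = 0.266), -0.42 ± 0.25 in WSD (0.413) and -1.05 ± 0.40 in TWSD (0.138), and without C 12 it was -0.67, -0.59 and -1.21 (adjusted p = 0.202, 0.297 and 0.0709).

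The medium-chain enzyme ACADM was at 40.8, 53.1, 50.1, 70.9 and 0.261 CPM in the controls and at 89.2 and 87.2 in the TWSD libraries. Its TWSD and C values did not overlap, but its change, 1.04 ± 0.80 (0.73 without C 12), had an adjusted p of 0.447, and T (25.5 to 77.2) and WSD (15.9 to 92.2) covered most of the span. Non-overlap of TWSD with C, seen for 3 members (ACADVL, ACADM and ACOX3), held for 12% of all genes tested, since TWSD has 2 libraries. The short-chain enzyme ACADS was at 5.01 CPM in C 12, 2.26 in TWSD 2 and 37.5 or more in the other 23. ACADSB, for short branched chains, reached 47.7 CPM in C 11, and ACAD9, also an assembly factor of respiratory complex I, ran from 3.08 CPM in C 12 to 258 in T 7. ACAD10 was at 445 CPM in C 2 and 12.0 in C 12, with T (102 to 233) and WSD (129 to 322) between them.

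HADHA and HADHB encode the 2 chains of the mitochondrial trifunctional protein, which runs the later steps for long chains, and they behaved differently. HADHA was at 259, 234, 208, 298 and 81.7 CPM in the controls, from 195 to 358 (median 297) in T, from 257 to 402 (median 314) in WSD, and at 347 and 227 in TWSD 2 and TWSD 3. C 12 stood far below the rest, and the other controls overlapped both T and WSD. Against C its log2 difference was 0.46 ± 0.22 in T (adjusted p = 0.26) and 0.57 ± 0.23 in WSD (0.159), and without C 12 it was 0.26 and 0.36.

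HADHB was at 347, 222, 130, 141 and 374 CPM in the same controls, so that C 12, lowest for HADHA, was the highest control for HADHB. It ran from 204 to 319 (median 272) in T and from 190 to 283 (median 277) in WSD, and was at 522 in TWSD 2 and 239 in TWSD 3. Against C its log2 difference was 0.13 ± 0.23 in T, 0.07 ± 0.24 in WSD and 0.65 ± 0.34 in TWSD (adjusted p = 0.261). Without TWSD 2 the last was -0.01, and without C 12 the first 2 were 0.35 and 0.28. The spans of HADHA and HADHB overlap in RefSeq's annotation of another build, and the strand setting of the counting is not given in the sources used here, so reads from shared stretches cannot be told apart.

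HADH, the medium- and short-chain hydroxyacyl-CoA dehydrogenase, was at 0.322 CPM in TWSD 2 and 34.8 in TWSD 3, and at 7.81 or more in all other libraries. TWSD 2 was the lowest of the 25 libraries and TWSD 3 lay close to their median of 34.8. The change against C, -1.41 ± 0.87, had an adjusted p of 0.336 and was -0.40 without TWSD 2. ECHS1, the short-chain hydratase, was at 11.3 CPM in C 12 and between 199 and 599 in the other 24 libraries. DECR1, a reductase needed for unsaturated chains, was at 0.261 CPM in C 12, which rests on 5 counts, and from 33.2 to 141 elsewhere. ACAA2, a thiolase, was at 333 CPM in C 12, inside the range of the other controls (210 to 416), and ECI1, an isomerase for unsaturated chains, ran from 6.98 to 48.0 CPM with overlapping groups.

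ETFA, the alpha chain of the electron transfer flavoprotein, came closest to the threshold in TWSD against C. It was at 168, 267, 144, 177 and 79.3 CPM in the controls, from 207 to 301 (median 242) in T, from 140 to 317 (median 203) in WSD, and at 632 in TWSD 2 and 213 in TWSD 3. TWSD 2 was far above the next highest library, WSD 6, and TWSD 3 lay below C 2. The log2 change was 1.34 ± 0.35 in TWSD (adjusted p = 0.0536), 0.53 ± 0.25 in T (0.244) and 0.31 ± 0.25 in WSD (0.589), and without C 12 the T and WSD values were 0.36 and 0.12. In TWSD it passed with DESeq2 (0.0113), with a filter of 5 CPM (0.0432), and without any 1 of C 1, C 2, C 12, T 1, T 3, T 8, T 9, WSD 3, WSD 6, WSD 7, WSD 8 or TWSD 3 (0.000793 to 0.0498). Without C 12 and TWSD 2 the change was 0.19.

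ETFB, the beta chain, was at 125, 88.2, 46.6, 76.3 and 2.30 CPM in the controls, from 48.5 to 92.2 (median 70.8) in T, from 52.0 to 84.3 (median 63.4) in WSD, and at 259 in TWSD 2 and 67.5 in TWSD 3. Apart from TWSD 2 at the top and C 12 at the bottom, all libraries lay between 46.6 and 125 CPM. The change of TWSD against C was 1.27 ± 0.62 (adjusted p = 0.23). Without TWSD 2 it was 0.02, and without C 12 and TWSD 2 it was -0.29. ETFDH, which passes the electrons on to ubiquinone, was highest in TWSD 2 (77.8 CPM) and C 12 (72.6) and ran from 17.7 to 66.4 elsewhere.

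**Figure D2:**
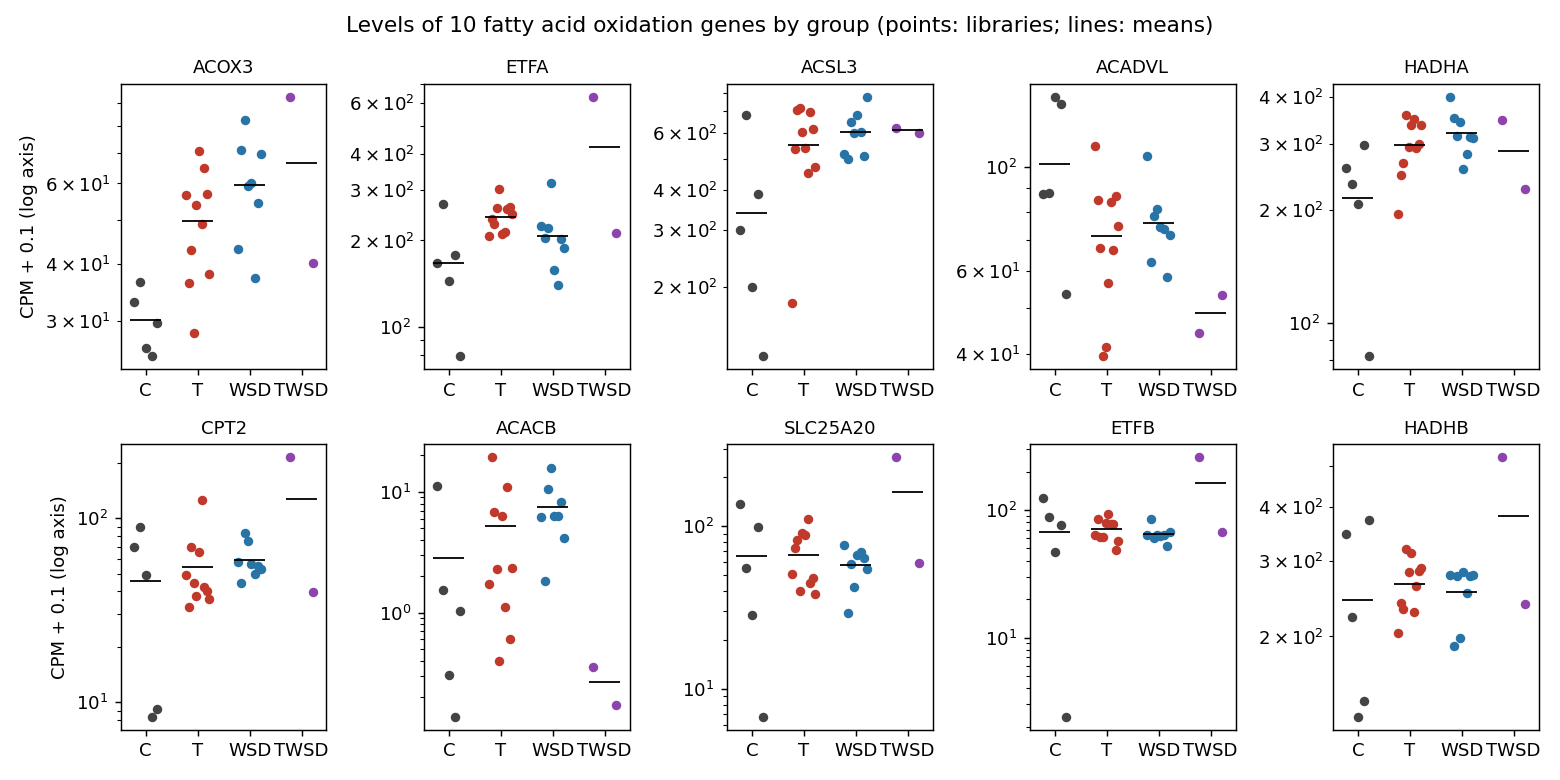
CPM + 0.1 on a log axis for the 10 genes with the lowest p against controls, 1 point per library (5 C, 10 T, 8 WSD, 2 TWSD) and a line at each group's mean. ACOX3 separates WSD (37.2 to 82.2) from C (25.1 to 36.5), while the high mean of ETFA, CPT2, SLC25A20, ETFB and HADHB in TWSD comes with 1 high library, TWSD 2.

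ACOX3 itself was at 33.0, 36.5, 26.1, 25.1 and 29.7 CPM in C 1, C 2, C 8, C 11 and C 12. In WSD it was at 43.0, 71.1, 82.2, 59.2, 60.1, 37.2, 54.3 and 69.4 CPM in WSD 1, 3, 4, 6, 7, 8, 9 and 10. All 8 WSD libraries were above all 5 controls, with WSD 8 and C 2 nearly touching. Such non-overlap of WSD and C held for 0.696% of all genes tested, and ACOX3 was the only member that showed it. The log2 change was 0.99 ± 0.27 (adjusted p = 0.0355), a fold of 1.98.

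In T, ACOX3 ran from 28.2 to 70.5 CPM (median 51.3) and overlapped the controls in T 3 and T 5. The log2 change was 0.72 ± 0.26 (adjusted p = 0.109). No member separated T from C, which 0.28% of all genes tested did, and none separated T from WSD (0.00718%). ACOX3 was at 92.8 CPM in TWSD 2 and 40.0 in TWSD 3, both above all controls, with a change of 1.14 ± 0.36 (adjusted p = 0.0915) that was 0.43 without TWSD 2. T and WSD differed by -0.26 ± 0.21 (0.9997), and the interaction was -0.57 ± 0.44 (0.599), so a difference between the treatments was not shown.

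The log2 change of ACOX3 in WSD stayed between 0.89 and 1.05 when each library was left out in turn, but its call was less steady. Its adjusted p rose above 0.05 without C 8 (0.067), C 11 (0.075) or C 12 (0.107), and without any of WSD 3, 4, 6, 7, 9 or 10 (0.0511 to 0.0761). The 3 control libraries with high CGA had the lowest ACOX3 of the controls. T 1, the other library with high CGA, was at 56.7 CPM, above all controls, and a link to CGA was not tested. Against C 1 and C 2 alone the change was 0.81 (adjusted p = 0.731). With voom the change was 0.95 (adjusted p = 0.442), and with DESeq2 0.92 (0.00777). ACOX3 overlaps no other protein-coding or lncRNA gene in RefSeq's annotation of another build, and other gene types were not looked up.

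The other peroxisomal enzymes did not pass the test in any of these comparisons. EHHADH and HSD17B4 are multifunctional enzymes for the middle steps, for straight and for branched chains or bile acid precursors. EHHADH ran from 2.59 CPM in WSD 8 to 56.2 in WSD 1, and HSD17B4 from 16.4 in C 12 to 152 in T 11. ACAA1 and SCP2 cleave the shortened chain, and SCP2 also yields a lipid carrier protein. ACAA1 was highest (167 CPM) in C 11, and SCP2 ran from 11.9 CPM in C 12 to 280 in WSD 6.

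DECR2 and ECI2, which handle unsaturated chains, were at 1 and 0 counts in C 12. The 0 counts allow up to 0.157 CPM for ECI2, which lay between 12.9 and 80.5 in the other 24 libraries, and DECR2 lay between 18.4 and 116. CROT, which makes carnitine esters of the shortened chains for export, was at 52.4 CPM in TWSD 2 and 3.31 in TWSD 3, and ranged from 0.0541 (WSD 6) to 28.6 elsewhere. TWSD 2 was highest for CROT, ECI2 and ACOX3. CRAT, the carnitine acetyltransferase of both organelles, had 0 counts in C 12 and 11.03 to 53.1 CPM in the others.

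Of the regulators, PPARA encodes a nuclear receptor that turns on fatty acid oxidation genes, and ACACB the acetyl-CoA carboxylase whose product malonyl-CoA inhibits CPT1. PPARA had 0 counts in C 12 and in TWSD 2, which allow up to 0.157 and 0.193 CPM, against 2.43 to 39.5 CPM in the other 23. ACACB was at 10.98, 1.43, 0.203, 0.0375 and 0.94 CPM in the controls, from 0.295 to 19.2 (median 2.22) in T, from 1.73 to 15.8 (median 6.18) in WSD, and at 0.258 and 0.0719 in TWSD 2 and TWSD 3. Both TWSD libraries lay below all T and WSD libraries and above the lowest control. Their values rest on 4 and 2 counts, and that of T 6, the lowest T library at 0.295 CPM, on 6. The share of all genes with such a separation was not computed. The log2 change against C was -4.04 ± 1.87 (adjusted p = 0.206), and the interaction -6.38 ± 2.20 (0.201), of a gene at 1 CPM or more in 18 libraries.

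Library C 12 decided much of the spread among the controls. It was the lowest of all 25 libraries for 19 of the 34 genes, for PPARA in a tie with TWSD 2 at 0 counts. Over all genes with a single lowest library, which leaves ties out, it was lowest for 24.8%. It lay below the other 4 controls for 24 genes (70.6%, against 32.2% of all genes tested). For 5 genes (CPT1A, SLC22A5, HADHB, ETFDH and EHHADH) it lay above them (14.7%, against 27.6% of all genes tested). Over the 34 genes its level had a median of 21.8% of the other controls' median, beside 74.1% over all genes. With library totals in place of TMM it lay below the other controls for 26 genes and above for 2. Of the 13934 genes tested it then lay below for 5340 and above for 2816. The lowest values, against that median, were those of ECI2, CRAT, PPARA, DECR2, DECR1 and ACADM. ACOX3 (100%), ACSL1 (89.7%) and ACACB (115%) stood near it, while CPT1A was at 595%, ETFDH at 267%, EHHADH at 260% and HADHB at 206%.

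The same library was at 8642 CPM for DDIT3, a stress-induced transcription factor, against at most 302 in the others, and had the lowest mean correlation with the other libraries, 0.648. Its summed level of the 6 epiblast markers was 3.55 CPM, against 26.6 in C 11 and 460 or more elsewhere, and that of the 8 cumulus and granulosa markers was 473, against 1949 in C 11 and 143 or less elsewhere. In C 12 that sum was almost wholly CYP19A1 (375.5 CPM), which is also in the syncytiotrophoblast list, and STAR (88.2). AMH was at 8.88 CPM in C 12, against at most 3.02 (TWSD 3) in any other library. VCAN, PTX3 and FSHR were at 0 in C 12, and HAS2 and LUM at 0.0522 and 0.313. Sperm markers summed to 3.45 CPM and blood markers to 4.44. The part of cell makeup or stress in the low values of C 12 was not tested. Its 34 genes took 0.0959% of all counts, against 0.222% to 0.373% in the other controls.

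**Figure D3:**
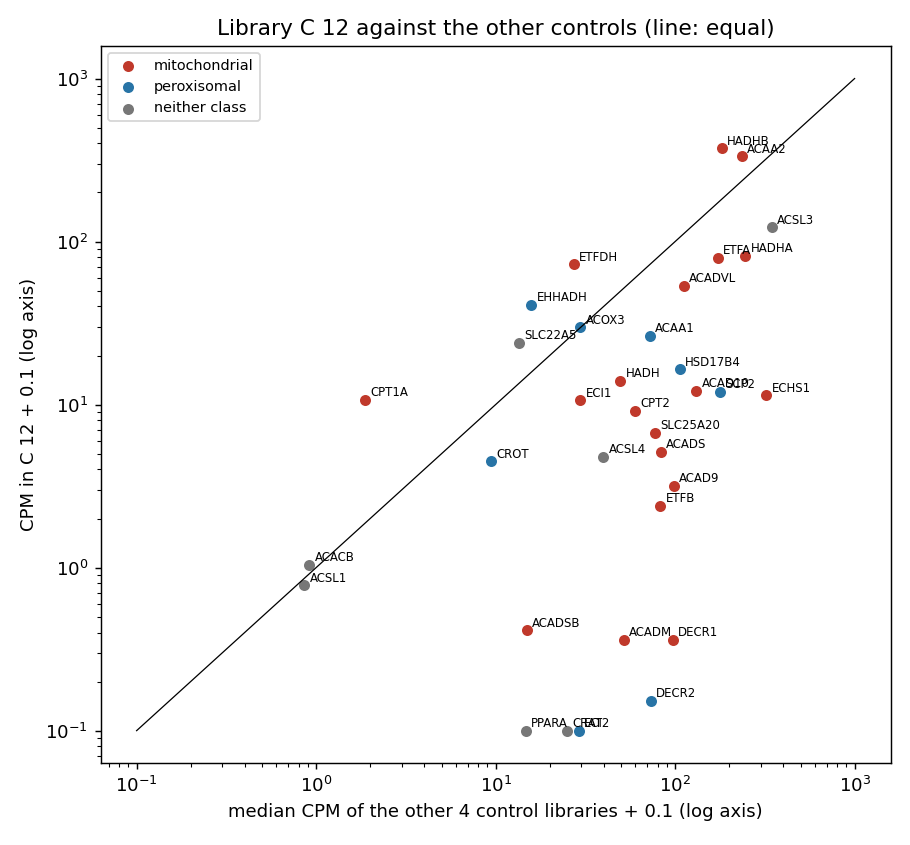
Each of the 34 genes in C 12 (vertical, CPM + 0.1) against the median of the other 4 controls (horizontal, CPM + 0.1), both on log axes, coloured by class. Most points lie under the line of equal values, with ECI2, CRAT and PPARA at 0 counts, while CPT1A, ETFDH, EHHADH and HADHB lie above it.

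The spread of the 34 genes was small in the T and WSD groups and large in C. The median SD of log2 CPM was 0.54 in T and 0.50 in WSD, below the 0.73 and 0.70 of all genes tested, and 1.68 in C, above the 1.35 of all genes. Without C 12 it was 0.73 in C, beside 0.95 over all genes. The share of counts taken by the 34 genes was 0.283% ± 0.122 (SD, n = 5) in C, 0.354% ± 0.034 (n = 10) in T, 0.358% ± 0.013 (n = 8) in WSD and 0.375% ± 0.040 (n = 2) in TWSD. The lowest T library, 0.27%, was T 1.

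The 2 TWSD libraries differed from each other for most members. By over 2-fold, 24 of the 34 genes (70.6%) differed between TWSD 2 and TWSD 3, as did 60.7% of all genes tested. The same share had a median of 23.5% over pairs of T libraries and 23.5% over pairs of WSD libraries, and of 51.5% over pairs of controls. TWSD 2 was above all 18 T and WSD libraries for 14 genes (41.2%, against 21.6% of all genes tested) and below them for 7 (20.6%, against 22%). With library totals these counts were 10 and 8, beside 1851 and 3682 of the 13934 genes tested. TWSD 2 had a mean correlation with the other libraries of 0.755 and a summed level of 7 oocyte markers of 467 CPM, the highest of the 25, and the part of either in these values was not tested. OOEP gave 384, GDF9 68.4 and ZP4 13.1 of that sum. ZP2 and BMP15 were at 0 there, and NLRP5 and ZP3 at 0.709 and 0.773. OOEP and ZP4 were higher in TWSD 2 than in any other library, and GDF9 was higher in T 11 (99.9).

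**Figure D4:**
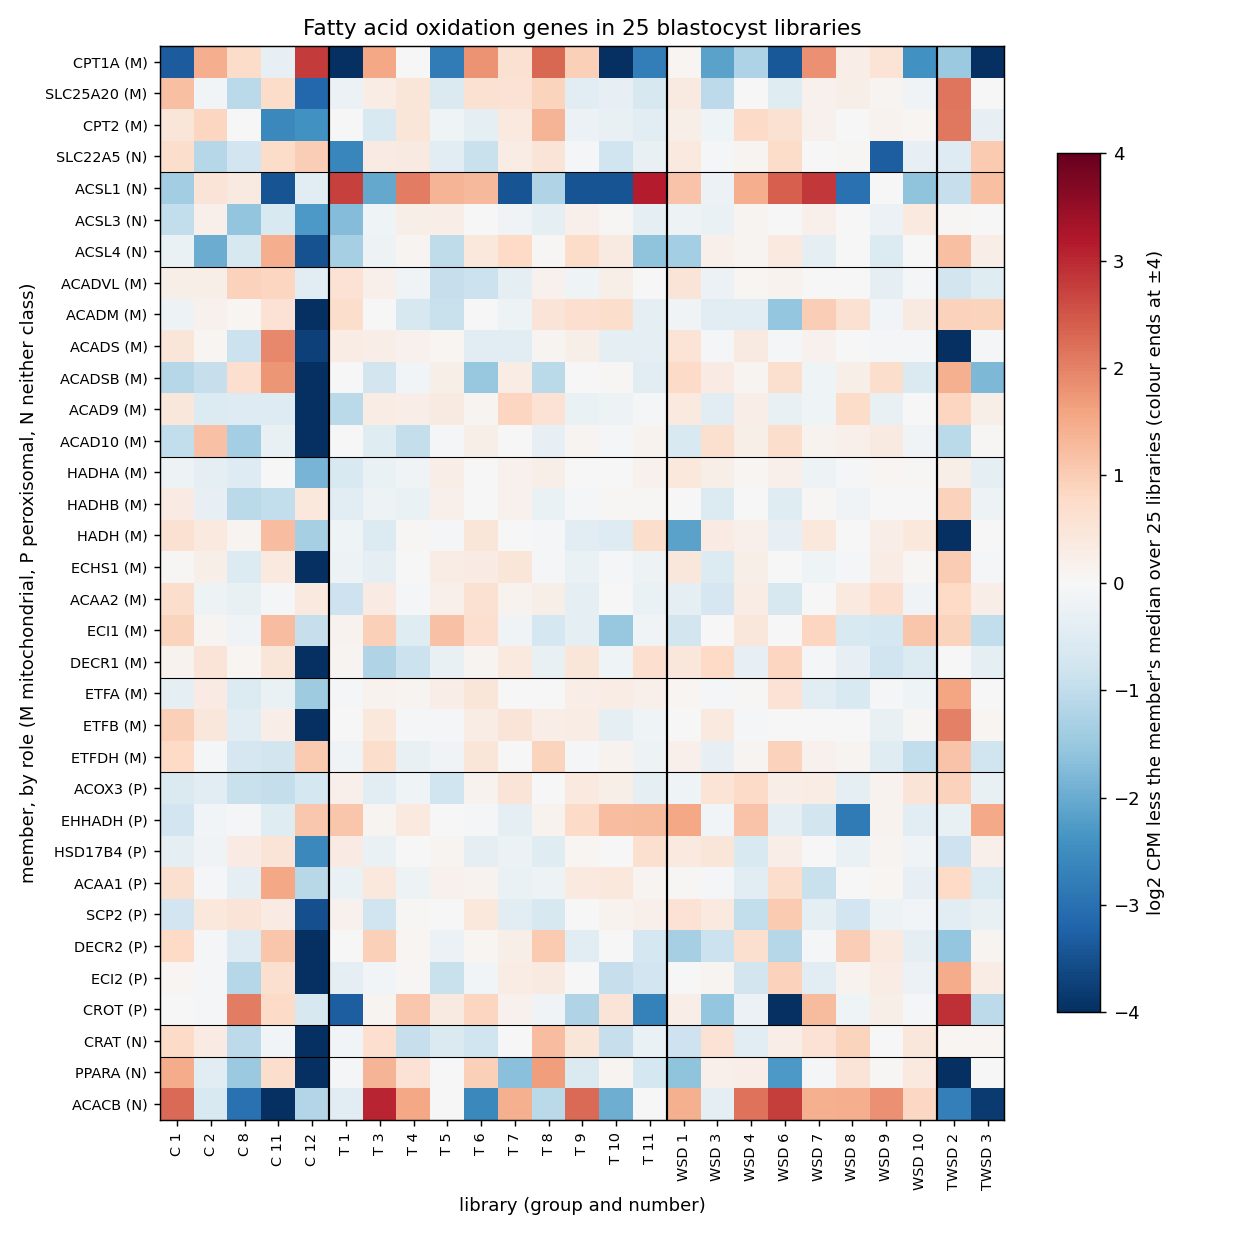
Log2 CPM of the 34 genes (rows, grouped by role) in 25 libraries (columns), each less the gene's median over the libraries. C 12 is the lowest library in 19 rows (tied with TWSD 2 for PPARA). TWSD 2 is the highest in 11, and for 15.6% of all genes tested, and CPT1A, ACSL1 and ACACB vary in all groups.

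The 2 classes were also compared as wholes. The mean log2 CPM of the 19 mitochondrial genes was 3.48 in C 12 and 5.67 to 6.34 in the other 24 libraries, and that of the 8 peroxisomal genes was 2.32 in C 12 and 4.87 to 5.79 in the others. Mitochondrial less peroxisomal, a difference that no test was run on, was 0.81 ± 0.31 (SD, n = 5) in C, 0.71 ± 0.23 (n = 10) in T, 0.84 ± 0.24 (n = 8) in WSD and 0.38 ± 0.08 (n = 2) in TWSD. The T and WSD means lay within 1 SD of the controls. That of TWSD was 0.42 lower than that of C. Both its values, 0.32 and 0.44, lay below all C libraries (0.47 or more) and all WSD libraries (0.58 or more). They lay inside the range of T (0.19 to 0.98) through T 10 alone, with T 4 next at 0.45. When ECI2 and CRAT, which act in both organelles, were counted as mitochondrial, the TWSD mean was 0.02 above that of C. The same count moved the WSD mean from 0.04 to 0.35 above that of C, and the T mean from 0.10 below to 0.14 above it. Both ECI2 and CRAT had 0 counts in C 12, which lowers the mean of C under that count. The differences under that count were not computed without C 12.

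**Figure D5:**
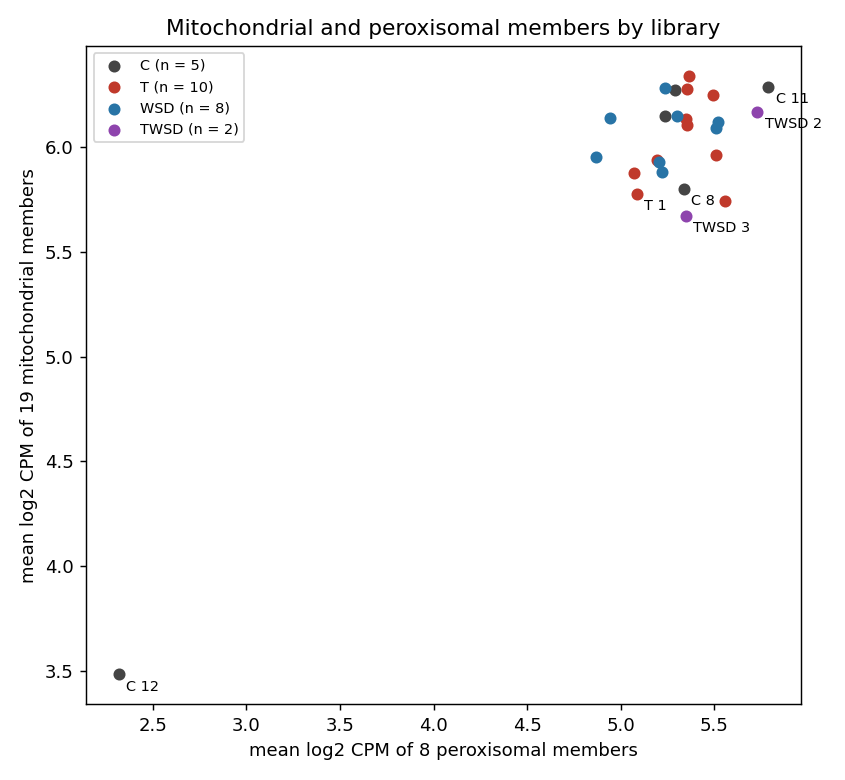
Mean log2 CPM of the 19 mitochondrial genes (vertical) against that of the 8 peroxisomal genes (horizontal), 1 point per library. C 12 lies apart at 3.48 and 2.32, and the other 24 libraries fall together whatever their group.

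Genes whose products work as pairs were correlated across the 25 libraries, with 4 pairs in the family, 100000 permutations and Benjamini-Hochberg adjustment. HADHA and HADHB had a Pearson r of -0.0039 (permutation p = 0.983, adjusted 0.986) and a Spearman rho of 0.19 (p = 0.37, adjusted 0.494). Without C 12 and T 1, the libraries farthest from the median of HADHA, r was 0.37. ETFA and ETFB had an r of 0.72 (p = 0.00184, adjusted 0.00736) but a rho of 0.24 (p = 0.246, adjusted 0.494), and without TWSD 2 and C 12 r was 0.03. On the levels the relation of ETFA to ETFB thus rested on those 2 libraries. On deviations from the group means r was 0.67 (p = 0.00022, adjusted 0.00088) and rho 0.41 (p = 0.0428, adjusted 0.171). There r was 0.41 without C 12 and TWSD 3, the 2 farthest on that scale. With 2 libraries in the group, TWSD 2 and TWSD 3 mirror each other around their mean. The permutation thus counts that contrast in both libraries, and leaving out TWSD 3 keeps TWSD 2. These values therefore do not show a relation apart from C 12 and TWSD 2.

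CPT1A and CPT2 had an r of -0.12 (p = 0.569, adjusted 0.986) and a rho of -0.0023 (p = 0.993, adjusted 0.993), and r was -0.16 without T 1 and T 10. HSD17B4 and EHHADH had an r of 0.0032 (p = 0.986, adjusted 0.986) and a rho of 0.19 (p = 0.35, adjusted 0.494), with an r of 0.29 without C 12 and TWSD 2. With the 4 libraries of high CGA left out, r was 0.18, 0.55, 0.13 and 0.34 for the 4 pairs, with adjusted p-values of 0.576, 0.139, 0.577 and 0.266.

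Other genes of the pathway were looked up from 4 lists. Of 31 further mitochondrial and shared genes, 23 were tested, and edgeR called MCEE in T and WSD against C and ACAD11 in TWSD against C. DESeq2 made the same calls and added SLC27A2 and SLC27A3 in TWSD, while voom called 0. MCEE encodes methylmalonyl-CoA epimerase, which serves the breakdown of odd-chain fatty acids and some amino acids. It was at 31.6, 41.9, 54.2, 74.0 and 275 CPM in the controls, from 19.4 to 49.4 in T and from 18.3 to 38.9 in WSD. On the log2 scale it fell by 1.45 ± 0.38 in T (adjusted p = 0.03) and fell by 1.77 ± 0.40 in WSD (0.0152). C 12 was far above all others, and without it the changes were -0.53 (adjusted p = 0.524) and -0.86 (0.215). The call in T was also lost without any 1 of T 3, T 4, T 9, T 10 or T 11 (0.0502 to 0.0545) and with library totals (0.0766). Without C 8, C 11 and C 12 the changes were -0.03 in T and -0.36 in WSD (0.998 and 0.939). Both calls were also lost with the groups compared alone (0.0925 and 0.087) and with voom (0.656 and 0.497).

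ACAD11, an acyl-CoA dehydrogenase of long chains, was at 13.3, 37.4, 15.0, 17.4 and 2.40 CPM in the controls and at 151 and 73.4 in TWSD 2 and TWSD 3. T ran from 8.12 to 62.6 CPM and WSD from 19.3 to 55.3. It rose in TWSD against C by 2.71 ± 0.63 (adjusted p = 0.0298), both libraries lying above all others of the series. Without C 8, C 11 and C 12 the change was 2.16 (adjusted p = 0.142), without TWSD 2 it was 2.12 (0.637), and the call was also lost without C 8 (0.0535), without C 11 (0.0539), with library totals (0.0767), with the groups compared alone (0.686) and with voom (0.971).

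The remaining 3 lists held other peroxisomal genes (16 of 18 tested), peroxisome biogenesis genes (15 of 16) and regulators of oxidation (18 of 18), and edgeR called 0 of them in each of the 6 comparisons. The lowest adjusted p was 0.0918 among the other peroxisomal genes (AGPS, an enzyme of ether lipid synthesis, in TWSD against C) and 0.064 among the regulators (RXRA, in T against C). An unadjusted p under 0.05 was reached in T, WSD and TWSD against C by 2, 1 and 3 other peroxisomal genes, by 0, 1 and 3 biogenesis genes and by 5, 4 and 3 regulators. In the same comparisons 2544, 2551 and 3062 of the 13934 genes tested reached it. DESeq2 called 0, 0 and 3 other peroxisomal genes and 0, 0 and 2 biogenesis genes. Of the regulators it called 4 (PPARG, RXRA, RXRB and NRIP1), 2 (PPARG and RXRA) and 2 (PPARG and NRIP1). Voom called 0 throughout, as it did over all genes tested against C. The last section gives DESeq2's calls over all genes.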

How the data were processed

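RNA of rhesus macaque blastocysts was sequenced in 25 libraries, and the gene-level values the authors deposited are raw counts of reads in a single table. Reads were handled with FastQC 0.11.8, Trimmomatic 0.39 and STAR 2.7.0 on build Mmul_10, per the submitters' processing notes. The counter, annotation release and strand setting were not given in the sources used here. Without strand, reads of overlapping genes cannot be told apart; 21 of the 34 members overlap a protein-coding or lncRNA gene in RefSeq's annotation of another build (MMU8v2.0), which was used for overlaps alone. A symbol table named 24173 of 35395 gene identifiers. No column was left unmapped, and no pair of libraries was a repeat: the smallest chi-square per gene was 71.7 within groups (84 pairs) and 76.7 across them (216 pairs).

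A gene was tested if 5 or more libraries had 1 CPM or more, and 1 CPM is 14.2 counts in the shallowest library. The 4 groups were fitted with edgeR 4.0.16 in R 4.3.3 (TMM factors, robust quasi-likelihood F-test, Benjamini-Hochberg over all 13934 genes, threshold 0.05), and all 25 libraries shared 1 estimate of the spread. Every adjusted p for a gene comes from that test unless DESeq2 1.42.0 or limma 3.58.1 (voom) is named. The biological coefficient of variation was 0.9. A log2 change is the first-named group less the second, with its standard error (SE). Log2 CPM used a prior count of 2. A count of 0 allows up to 3 counts, which covers counting error only. The scripts were tested on simulated data.

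Genes given in every library are those past the threshold in any comparison, filled up to 10 by the smallest p in T, WSD or TWSD against C. The members and lists were chosen with earlier results of these data known. Alternatives were other tools, scalings and filters, a replicate block, and leaving out libraries; leaving out C 12 with TWSD 2, and C 8, C 11, C 12 with T 1 in the group tests, was chosen after seeing the data. No sequences or gene lengths were used here, and single values of some genes of the other pathway lists are not reported here.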

Additional observations from a re-analysis of the deposited data

Results flagged for a closer look

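Within groups of 5 to 10 libraries, 14 of 102 sets of values (34 genes in C, T and WSD) had 1 library apart from all others by Dixon's 95% criterion on log2 CPM. Its nominal rate of 1 in 20 holds for independent, normally distributed values, and genes of 1 library are not independent. The rate over all genes was not computed, so the 14 are not read as an excess. All 14 were on the low side, and 9 were in C 12. In C 12 these were ACADM (0.261 CPM, others 40.8 to 70.9), ACAD9 (3.08, others 95.6 to 191), HADHA (81.7, others 208 to 298), ECHS1 (11.3, others 200 to 387) and DECR1 (0.261, others 82.0 to 110). The other 4 in C 12 were ETFB (2.30, others 46.6 to 125), DECR2 (0.0522, others 37.6 to 116), ECI2 (0, others 12.9 to 44.6) and CRAT (0, others 11.03 to 38.7).

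T 1 was apart for SLC22A5, the carnitine transporter (1.91 CPM, others 6.54 to 17.2), and for ACSL3 (179, others 451 to 716). In WSD, SLC22A5 was at 1.15 CPM in WSD 9 (others 9.68 to 20.4), HADH at 7.81 in WSD 1 (others 27.7 to 46.7) and CROT at 0.0541 in WSD 6 (others 2.31 to 16.5).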

How the results depend on the processing

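In WSD against C, the 1 call, ACOX3, became 0 calls with no filter, with voom, with the replicate block, without C 8, C 11 and C 12, with the groups compared alone, and without C 12 and TWSD 2 or C 8, C 11, C 12 and T 1. The log2 change of ACOX3 under those 7 settings, in that order, was 1.03, 0.95, 0.89, 0.81, 1.00, 1.00 and 0.79. Leaving out 1 library gave 0 to 3 calls (3 without C 2: ACSL3, ACAD10 and ACOX3), and 0 to 1 in T against C (ACSL3 without C 2). In TWSD against C the count of 0 became 4 with DESeq2, 1 with the filter of 5 CPM (ETFA), 1 without T 1 (ETFA), and 0 to 7 when 1 library was left out (7 without TWSD 3: CPT2, ACADS, HADHB, HADH, ETFA, ACOX3 and PPARA). TWSD against the mean of T and WSD gave 1 with DESeq2, 3 without C 8, C 11 and C 12 (SLC25A20, ETFA and ETFB), 3 without T 1 as well, and 0 to 9 on leaving out 1 library (9 without TWSD 3). The interaction gave 1 with DESeq2 and 0 to 3 on leaving out 1 library (ACADS, HADH and PPARA without TWSD 3). Where 1 TWSD library was left, it was assumed to vary like the other groups. The counts of members without TWSD 3 rest on such fits, and the share of all genes called in the same fits is not given here. For TWSD against C only a range over all genes is given below. These counts are therefore not read as particular to the list. T against WSD gave 0 throughout. The causes were not tested.

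Over all genes, the calls in T, WSD and TWSD against C were 573, 567 and 167. They were 1102, 1185 and 1995 with DESeq2, 240, 321 and 96 with library totals, 583, 450 and 92 with no filter, 606, 592 and 236 with the filter of 5 CPM, and 0, 0 and 0 with voom. With the groups alone they were 114, 30 and 0, without T 1 886, 598 and 340, without C 8, C 11 and C 12 0, 1 and 20, without those and T 1 0, 1 and 71, and without C 12 and TWSD 2 75, 84 and 1. With the replicate block, the number in the sample title as a term, they were 0, 0 and 0. Leaving out 1 library gave 40 to 1287, 51 to 1110 and 0 to 2786. TWSD against the mean of T and WSD had 14 calls (675 with DESeq2, 0 with voom or the block, 517 without C 8, C 11 and C 12), and the interaction had 10 (395, 0 and 3 likewise). The title number pairs no animals or batches in the labels: over 16 same-numbered pairs the deviations from group means correlated from -0.38 to 0.22 (3 above 0.1), and 1 of 23 libraries correlated best with its own number.

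Mitochondrial less peroxisomal level differed from C by -0.10 in T (-0.18 to -0.0087 on leaving out 1 library), 0.04 in WSD (-0.047 to 0.13) and -0.42 in TWSD (-0.51 to -0.33). With ECI2 and CRAT as mitochondrial it was 0.35 in WSD and 0.022 in TWSD, and with medians over genes -0.035 in TWSD. The correlation of HADHA with HADHB was 0.18 without C 8, C 11, C 12 and T 1, 0.16 with library totals and 0.35 without C 12 and TWSD 2. That of ETFA with ETFB was 0.55 and 0.034 without those 4 and those 2 libraries, and that of CPT1A with CPT2 was 0.13 and 0.12. On deviations from group means, where the TWSD libraries mirror each other, ETFA with ETFB gave 0.67, CPT1A with CPT2 0.029, and HSD17B4 with EHHADH -0.0011. Low levels limit CPT1A, ACSL1 and ACACB above all, which were under 1 CPM in 7 to 13 libraries.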
